A study of Mus musculus with 12 samples.

Results

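Left ventricles of miR-150 cKO mice after myocardial infarction (MI) were compared with left ventricles of miR-150 cKO mice after sham surgery, 4 weeks after the operation. The members of the comparison were the 6 arrays that the sample labels assign to miR-150 cKO, 3 labelled MI and 3 labelled sham, of 12 arrays in the series, and no measured value was used to choose them. All 6 mice were C57BL/6J, homozygous for the floxed miR-150 allele (miR-150 fl/fl) and positive for alpha-MHC-Cre. The MI mice were 15 weeks old at harvest and the sham mice 14 to 15 weeks, with 1 male and 2 females in each group. The infarct came from a permanent ligature on the left anterior descending coronary artery. The other 6 arrays held miR-150 fl/fl mice without Cre, 3 after MI and 3 after sham surgery, aged 13 to 14 weeks, and served here as the second genotype. The alpha-MHC promoter drives Cre in cardiomyocytes, so miR-150 was left in place in the other cells of the ventricle. Both groups compared carried Cre, and the comparison therefore measured the response to surgery on the miR-150 cKO background, not the effect of the deletion.

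After a coronary ligation, dead myocardium is replaced by a collagenous scar. Fibroblasts become activated and deposit collagens, fibronectin and proteoglycans, while surviving cardiomyocytes enlarge, re-express fetal genes such as natriuretic peptides and skeletal alpha-actin, and lower many genes of mitochondrial energy production. miR-150 is a microRNA known from lymphocytes that is also present in cardiomyocytes, and a microRNA represses transcripts that pair with its seed. The floxed gene, Mir150, gives the strands miR-150-5p, which is the strand the study calls miR-150, and miR-150-3p. The mature 3p strand (RefSeq, GRCm38.p6, chr7:45121798-45121819, plus strand) is printed here with its seed, bases 2 to 8, in capitals because it is part of what both groups lacked in cardiomyocytes.
mmu-miR-150-3p: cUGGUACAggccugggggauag
No probe of miR-150 has a name here, so the deletion was not checked on these arrays.

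Total RNA was labelled with Cy3 and hybridised to 1-colour transcript arrays, 1 mouse per array. A value below is the log2 signal of a probe relative to the 75th percentile of its array, and a difference is the MI mean minus the sham mean on that scale. The array carried 60819 probes, and the limma fit took in the 54232 that stood well above background on 3 or more arrays. A transcript is called higher or lower past the limits when its fold was at least 1.5 and its unadjusted p was under 0.05, and adjusted p values are by the Benjamini-Hochberg method over all 54232 tested. The smallest p that an exact permutation test of 3 arrays against 3 allows is 0.1. Slide and surgery coincided: the 3 MI arrays were all on slide 1 and the 3 sham arrays were all on slide 2, so in these 6 arrays they cannot be told apart. Slide 1 also held 1 of the 3 MI miR-150 fl/fl arrays, and a fit with slide as a block rests on that array alone. The share of probes well above background was 87.4% to 89.4% on the MI arrays, 90.3% on the array of sham replicate 1, and 74.1% and 76.1% on the arrays of sham replicates 2 and 3, which lay in another row of slide 2. The part of slide and of this difference in detection in the results was not tested. Of 15 housekeeping probes 0 were past the limits, with 1 at an unadjusted p under 0.05, Rpl13a at -0.44 ± 0.18 (SE). The labelled tissue was checked on the cardiomyocyte markers with a name, Tcap, Tnnt2 and Nkx2-5, which were well above background on all 6 arrays.

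After MI, 2495 transcripts of the miR-150 cKO heart rose past the limits and 951 fell, which is 4.60% and 1.75%, or 6.35% together, of those tested, and 1139 (2.10%) had an adjusted p under 0.05. The median difference over all transcripts tested was 0.06. Higher transcripts made up 72.4% of those past the limits, whereas quantile normalization gave 1677 rises and 1365 falls, a share of 55.1%. The number of adjusted calls moved with the array left out. There were 4037 without sham replicate 1, with 4719 higher and 1528 lower, 460 without MI replicate 1, and 0 without each of the other 4 arrays in turn (Benjamini-Hochberg adjusted p in limma). With slide as a block 22 transcripts had an adjusted p under 0.05, of which 1 was among the 1139, and with the 6 miR-150 cKO arrays fitted alone there were 0. The bars of these counts by setting show the same values side by side.

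**Figure D1:**
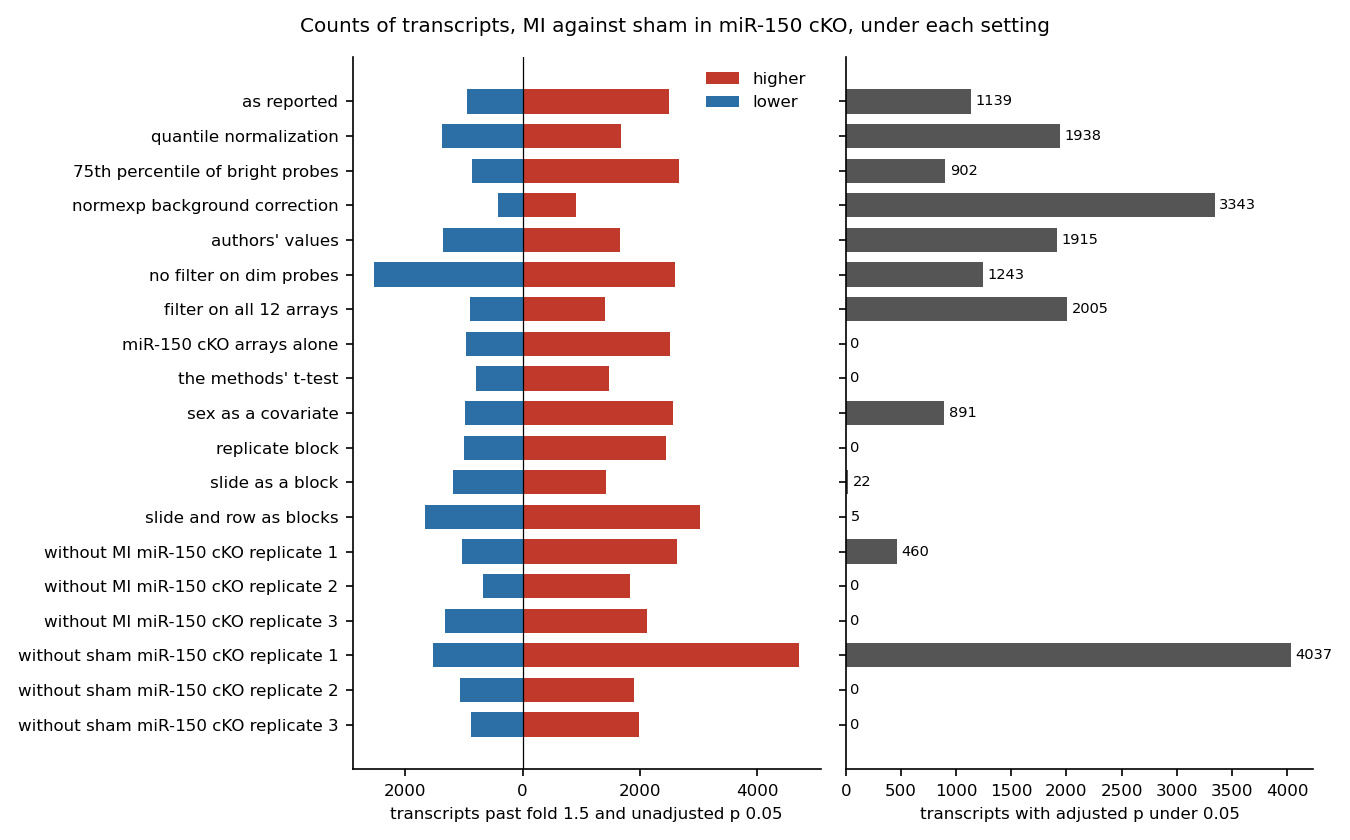
Number of transcripts past the fold and p limits (left, higher to the right of 0 and lower to the left) and number with an adjusted p under 0.05 (right) in MI against sham miR-150 cKO hearts, as reported and under each alternative. The adjusted count is 1139 as reported, 4037 without sham replicate 1, and 0 in 7 of the 18 alternatives.

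Names were available for 892 of the transcripts tested, because the deposited files pair no probe with a gene symbol and, apart from the housekeeping probes, names came only from the study's lists of changed transcripts. Of the 892, 809 had their name through a list that used some of these 6 arrays, so the direction of such a transcript here is partly fixed by how it was listed. A transcript listed as higher in MI miR-150 cKO than in MI miR-150 fl/fl hearts had to be high on the MI arrays: of 427, 149 were higher past the limits and 0 lower. Past the limits, 22.2% of all 892 named transcripts rose and 10.4% fell, 579 had a positive difference and the median was 0.31, and the counts of the lists below stand beside these shares as well as those of all transcripts tested. The only lists that share no array with the comparison are those of transcripts changed by MI in miR-150 fl/fl hearts, 103 higher and 35 lower. They are described first. In bulk tissue a change in the number of cells of a type and a change in RNA per cell cannot be told apart.

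Of the 103 transcripts listed as higher after MI in miR-150 fl/fl hearts, 26 were also higher past the limits in miR-150 cKO hearts and 1, Adipoq, was lower, against 4.60% and 1.75% of all transcripts tested. Some of the 103 were also on lists that use miR-150 cKO arrays. In MI miR-150 cKO against MI miR-150 fl/fl hearts 4 were listed as higher, Comp among them, and 12 as lower, Adipoq among them. In sham miR-150 cKO against sham miR-150 fl/fl hearts 27 were listed as higher and 0 as lower, which favours a negative difference here. By fitted difference the first of the 26 were Lrrc15, Fn1 (fibronectin), Comp, Col1a1 and the potassium channel gene Kcnma1, and the matrix genes Prelp and Bgn were also among them. The median difference of the 103 was 0.44, beside 0.06 over all tested, and 82 of the 103 had a positive difference, beside 58.4% of all tested. In the genotype that chose them the median was 0.85. Only Lrrc15 and Prelp had an adjusted p under 0.05 (limma, Benjamini-Hochberg). Of the 63 that are on no list using miR-150 cKO arrays, 19 were higher and 0 lower past the limits, with a median of 0.46. The count of 26 became 14 without MI replicate 2, and 6 with slide as a block, of which 3 were among the 26 (Adamts2, Lrrc15 and Bgn), while the median with slide as a block was 0.47. Of the MI miR-150 fl/fl arrays 1 of 3, and 0 of 3 of the sham miR-150 fl/fl arrays, lay on slide 1, so slide moved with surgery in part in the listing as well.

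Of the 35 transcripts listed as lower after MI in miR-150 fl/fl hearts, 0 were lower past the limits here and 4 were higher, among them Slc36a2, Pcdhga7 and Acsf2, and the median difference was 0.14. The median was -0.06 after quantile normalization, -0.16 with normexp background correction and -0.08 with slide as a block, and the count of 4 became 2, 1 and 0 in the same order, and 2 without MI replicate 3 or without sham replicate 2. Of the 35, 7 were also listed as higher in MI miR-150 cKO than in MI miR-150 fl/fl hearts, among them Acsf2. A further listing, as lower in sham miR-150 cKO than in sham miR-150 fl/fl hearts, held 7. Both listings favour a positive difference here, while 1 was listed as lower in MI miR-150 cKO hearts. Of the 20 that are on no list using miR-150 cKO arrays, 1 was higher and 0 lower past the limits, with a median of -0.02. Slc36a2, an amino acid transporter, rose by 0.60 ± 0.21, and was not past the limits without MI replicate 2 (0.47), MI replicate 3 (0.55) or sham replicate 1 (0.56). Pcdhga7 was well above background on 1 of 3 sham arrays, and was not past the limits without MI replicate 3 (0.51), sham replicate 2 (0.38) or sham replicate 3 (0.57). Acsf2, an acyl-CoA synthetase, was -3.0, -2.64 and -2.97 on the MI arrays and -4.02, -3.26 and -4.29 on the sham arrays. Its groups did not overlap, with a difference of 0.99 ± 0.25 (SE, adjusted p = 0.0698 in limma), but it was well above background on 2 of 3 sham arrays and its difference was 0.19 with normexp.

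**Figure D2:**
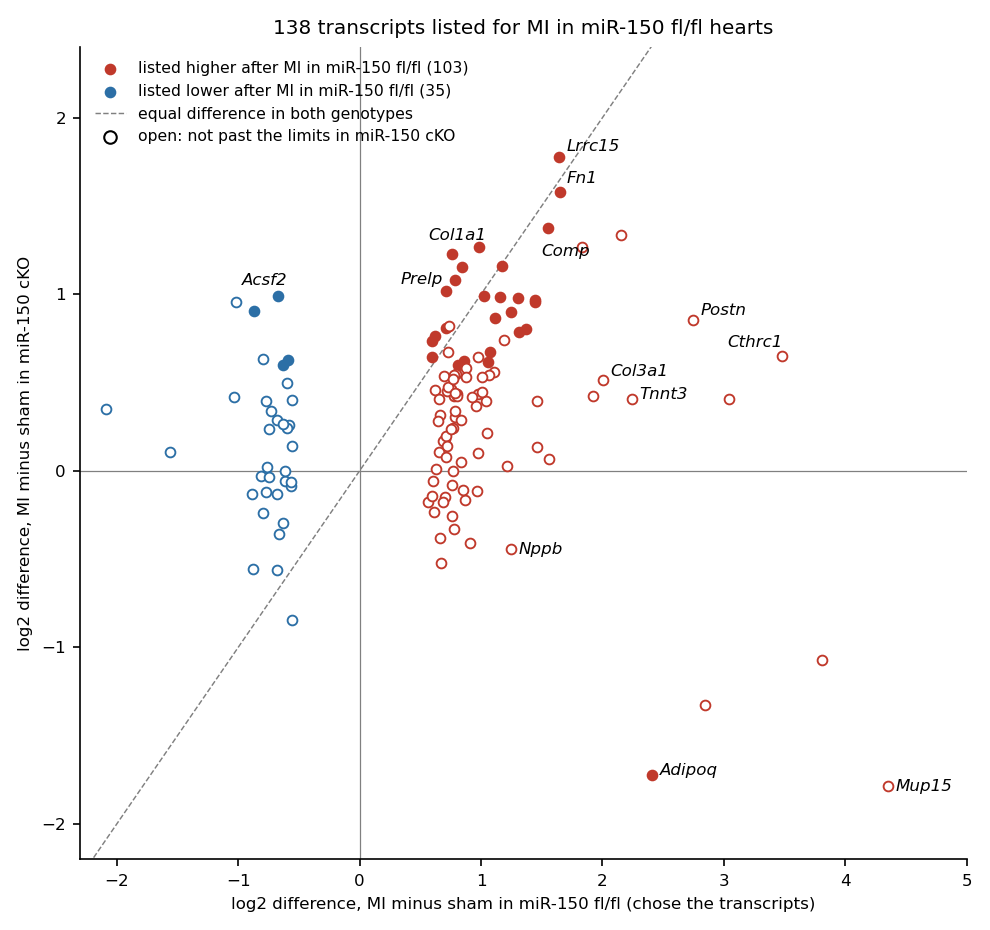
Difference between MI and sham in miR-150 fl/fl hearts (horizontal axis, log2, the values that chose the transcripts) and in miR-150 cKO hearts (vertical axis, log2) for the 138 transcripts listed as higher (red, 103) or lower (blue, 35) after MI in miR-150 fl/fl. Filled points were past the limits in miR-150 cKO: Fn1, Lrrc15, Comp, Col1a1 and Prelp lie at 1.02 to 1.78 on the vertical axis, and Adipoq at -1.72.

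The matrix genes of the scar were higher in MI than in sham miR-150 cKO hearts, by 1.56- to 2.99-fold in those past the limits. Of 19 named transcripts of matrix glycoproteins and proteoglycans 11 were higher past the limits and 0 lower, with a median difference of 0.76, and of 6 collagens 3 were higher and 0 lower, with a median of 0.85. The names of 9 of the 19 glycoproteins came only through MI in miR-150 fl/fl hearts, and these include Fn1, Bgn, Eln, Prelp and Fbln1. In MI hearts 5 of the 19, Comp among them, were listed as higher in miR-150 cKO than in miR-150 fl/fl, and 1, Dpt, as lower. In sham hearts 4 were listed as higher and 0 as lower in miR-150 cKO. Fn1, fibronectin, which links cells to collagen in the provisional matrix, was 0.23, 1.65 and 1.06 on the MI arrays and -0.21, -1.17 and -0.42 on the sham arrays. All 3 MI values lay above the sham values, with MI replicate 1 closest to them. The difference was 1.58 ± 0.40 (SE, n = 3 and 3), a fold of 2.99 (adjusted p = 0.0715 in limma). Comp, cartilage oligomeric matrix protein, which binds collagen fibrils, was 3.71, 4.67 and 3.83 after MI and 3.46, 1.95 and 2.67 after sham surgery. The groups again did not overlap, with a difference of 1.38 ± 0.40 and an adjusted p of 0.0958.

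Prelp, a small leucine-rich proteoglycan that anchors basement membranes to connective tissue, was 4.50, 5.28 and 4.88 on the MI arrays and 4.04, 3.63 and 3.94 on the sham arrays. Every MI array was above every sham array, and the difference of 1.02 ± 0.22 had an adjusted p of 0.047. Bgn, biglycan, another proteoglycan of the same family, was 5.55, 6.14 and 5.75 after MI and between 4.66 and 4.91 after sham surgery, with a difference of 0.99 ± 0.25. Eln, which encodes elastin, was 3.89, 3.94 and 3.37 after MI and 3.56, 2.54 and 2.21 after sham surgery. Sham replicate 1 overlapped the MI values of Eln, and its difference was 0.97 ± 0.35. It was not past the limits without MI replicate 1 (0.89), MI replicate 2 (0.86), sham replicate 2 (0.85) or sham replicate 3 (0.69). Fbln1, fibulin 1, rose by 0.65 ± 0.20, but not past the limits without MI replicate 2 (0.44) or sham replicate 2 (0.55). The lowest of the 19 was Dpt, dermatopontin, at -0.12 ± 0.23, whose difference in miR-150 fl/fl hearts was 0.97. The count of 11 became 5 without MI replicate 2 and 7 without sham replicate 3. In the fit with slide as a block 1 of the 19 was past the limits and the median was 0.45.

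Among the collagens, Col1a1, Col1a2 and Col6a1 were higher past the limits. Col1a1, the main chain of type I collagen, was -1.82, -0.31 and -1.01 on the MI arrays and -2.12, -2.23 and -2.59 on the sham arrays, without overlap. The difference was 1.27 ± 0.30 (adjusted p = 0.0612). Col6a1, a chain of the beaded collagen around cells, was 4.34, 4.76 and 4.56 after MI and 3.69, 3.68 and 3.51 after sham surgery. Its difference of 0.93 ± 0.15 had an adjusted p of 0.0245, and it was past the limits in all 18 alternatives, at 0.75 with slide as a block. Col1a2, the other chain of type I collagen, rose by 0.80 ± 0.27, and was not past the limits without MI replicate 2 (0.48). Col6a1 has its name through the list of transcripts higher in MI miR-150 cKO than in MI miR-150 fl/fl hearts. Col3a1, the collagen of early scar, was the lowest of the collagens: it was 4.05, 4.84 and 4.20 after MI and 4.20, 3.78 and 3.57 after sham surgery, and the difference of 0.52 ± 0.41 was not past the limits.

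Enzymes that process the matrix were mixed. Past the limits, 3 of 16 named transcripts rose and 1 fell, with a median difference of 0.42 that was 0.26 without MI replicate 2. In MI hearts 4 of the 16 were listed as higher and 2 as lower in miR-150 cKO than in miR-150 fl/fl. In sham hearts 4 were listed as higher and 1 as lower, so part of the directions here is not independent of the listing. Adamts2, the procollagen N-proteinase, was 0.55, 1.27 and 0.70 on the MI arrays and 0.31, 0.05 and -0.44 on the sham arrays. The groups did not overlap, and the difference of 0.86 ± 0.22 (adjusted p = 0.0668) was past the limits in all 18 alternatives, at 1.02 with slide as a block. Timp2, an inhibitor of matrix metalloproteinases, rose by 0.73 ± 0.26 and the proprotein convertase Pcsk5 by 0.61 ± 0.12. Timp2 was not past the limits without MI replicate 2 (0.59), MI replicate 3 (0.68) or sham replicate 1 (0.61), and Pcsk5 not without MI replicate 1 (0.57) or sham replicate 2 (0.55). Mmp25, a membrane-anchored metalloproteinase of leukocytes, was 1.37, 1.21 and 1.62 after MI and 2.16, 2.54 and 2.55 after sham surgery. It was lower on every MI array and fell by 1.02 ± 0.17 (adjusted p = 0.0278).

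Of 24 named genes of activated fibroblasts 6 rose past the limits (25.0%, beside 22.2% of all named transcripts) and 1 fell, and the median difference was 0.52. The count of 6 became 10 without sham replicate 1 and 2 with slide as a block. Of the 24, 20 were listed for MI in miR-150 fl/fl hearts. Lrrc15, a membrane protein of myofibroblasts, was -4.63, -3.13 and -3.34 on the MI arrays and -5.53, -5.53 and -5.38 on the sham arrays, where it was well above background on 0 of 3. Set against the background of the sham arrays, the MI mean of Lrrc15 was 1.37-fold higher on the main scale, a value given without an error. Its fitted difference had an adjusted p of 0.0382 in limma, and was 0.25 with normexp background correction. Its promoter is printed here, 300 bases around the RefSeq start (GRCm38.p6, chr16:30283205-30283504, minus strand), because Lrrc15 had the largest fitted difference of the 26 and the window holds an AP-1 match (TGANTCA, searched on both strands), which is in capitals.
Lrrc15: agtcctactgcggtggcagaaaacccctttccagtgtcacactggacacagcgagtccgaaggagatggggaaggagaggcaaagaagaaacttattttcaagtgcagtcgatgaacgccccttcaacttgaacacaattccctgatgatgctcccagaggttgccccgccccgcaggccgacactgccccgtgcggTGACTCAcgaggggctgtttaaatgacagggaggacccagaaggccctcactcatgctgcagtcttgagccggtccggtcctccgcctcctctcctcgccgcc
An AP-1 match was present in 2 of 17 promoter windows that the table held for 16 genes of the 26 transcripts, and in 7.79% of all 32544 windows. The TEAD letters CATTCC were in 0 of the 17 and in 14.6% of all windows. These shares are a description of letters in the windows.

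The periostin gene Postn and Cthrc1, both secreted by activated fibroblasts, showed the largest spread. Postn was 2.32, 2.84 and 1.98 on the MI arrays and 2.24, 0.41 and 1.94 on the sham arrays. Only sham replicate 2 was clearly below the MI arrays, and the difference of 0.85 ± 0.48 was not past the limits, but it was without sham replicate 1 (1.21). In miR-150 fl/fl hearts the difference of Postn was 2.75 ± 0.48. Cthrc1 differed by 0.65 ± 0.66 here and by 3.48 ± 0.66 in miR-150 fl/fl hearts. The test of the difference between the genotypes gave -1.89 ± 0.68 for Postn and -2.83 ± 0.93 for Cthrc1, with adjusted p values of 0.30 and 0.28 in limma, and both genes were listed on the miR-150 fl/fl values that enter it. Runx2, a transcription factor of bone and of activated fibroblasts, was the one that fell: it was -2.25, -2.78 and -2.39 after MI and -1.51, -1.37 and -1.10 after sham surgery. All 3 MI values were lower, and the difference of -1.15 ± 0.17 had an adjusted p of 0.0223 and was past the limits in all 18 alternatives.

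**Figure D3:**
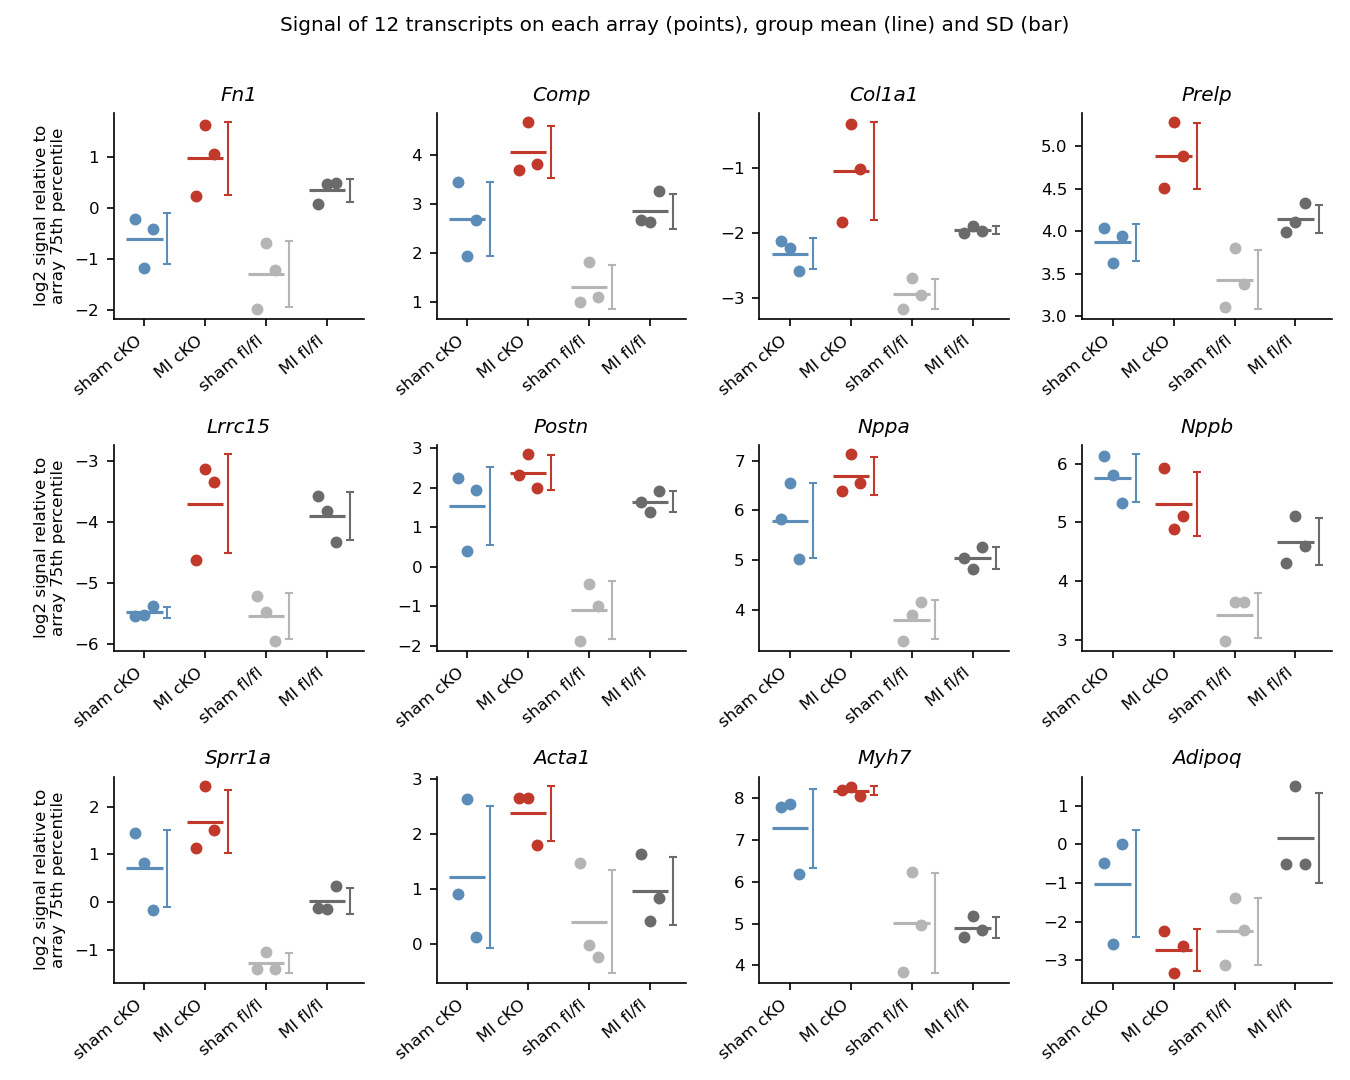
Signal of 12 transcripts on each array (points, log2 relative to the array's 75th percentile) with the group mean (horizontal line) and SD (bar) of 3 arrays in each of the 4 groups. Fn1, Comp, Col1a1, Prelp and Lrrc15 are higher on every MI cKO array than on every sham cKO array, while Postn, Nppa, Nppb, Sprr1a, Acta1 and Adipoq overlap; in Myh7 sham replicate 3 lies apart from the other sham arrays.

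Of 12 named members of the TGF-beta family and its matricellular partners 5 were higher past the limits and 0 lower, with a median difference of 0.53. Tgfb3, a TGF-beta ligand, was 3.44, 4.11 and 3.71 after MI and 3.11, 2.90 and 2.97 after sham surgery, without overlap. The difference was 0.76 ± 0.21 (adjusted p = 0.089), and it was 0.58 without MI replicate 2 and 0.18 with slide as a block, neither past the limits. Gdf15, a stress cytokine of the family, was 2.35, 2.97 and 2.76 after MI and 1.88, 2.02 and 1.16 after sham surgery, and rose by 1.01 ± 0.24. Sost, sclerostin, an extracellular inhibitor of Wnt signalling, was 2.44, 3.50 and 2.62 after MI and 0.82, 2.24 and 1.44 after sham surgery. Its difference of 1.35 ± 0.44 was 0.20 with slide as a block and -0.14 with slide and row as blocks. Ctgf, the connective tissue growth factor Ccn2, differed by 0.81 ± 0.36 (adjusted p = 0.234). It was not past the limits without MI replicate 2 (0.59), MI replicate 3 (0.86), sham replicate 2 (0.61) or sham replicate 3 (0.81). The count of 5 became 2 without MI replicate 2 and 8 without MI replicate 1. When slide was a block 0 of the 12 were past the limits and the median was 0.39. Of the 12, 6 have their names through the list of transcripts higher in MI miR-150 cKO than in MI miR-150 fl/fl hearts.

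Of 17 named genes of the stress and fetal program, 8 were higher and 0 lower past the limits, with a median difference of 0.81. The list is not limited to cardiomyocyte genes, and Gdf15 and Ctgf in it are also counted above with the TGF-beta family. Of the 17, 13 were named through the list of transcripts higher in MI miR-150 cKO than in MI miR-150 fl/fl hearts, which shares the MI arrays, so the count is not independent evidence of the direction. Nppa, which encodes atrial natriuretic peptide, was 6.40, 7.13 and 6.55 on the MI arrays and 5.82, 6.55 and 5.02 on the sham arrays. Sham replicate 2 overlapped the MI values. The difference was 0.90 ± 0.35, a fold of 1.86 (adjusted p = 0.188), and was not past the limits without MI replicate 2 (0.68), sham replicate 1 (0.91) or sham replicate 3 (0.51). Nppb, which encodes brain natriuretic peptide and neighbours Nppa on chromosome 4, was 5.93, 4.89 and 5.11 after MI and 6.13, 5.80 and 5.33 after sham surgery. Its groups overlapped, and the difference was -0.44 ± 0.32, or -0.75 and past the limits without MI replicate 1, beside 1.25 ± 0.32 in miR-150 fl/fl hearts. The difference between the genotypes was -1.69 ± 0.45, and limma gave it an unadjusted p of 0.00362 and, after adjustment, an adjusted p of 0.22. The level of Nppb in sham hearts was 5.75 ± 0.40 (SD, n = 3) in miR-150 cKO and 3.43 ± 0.38 in miR-150 fl/fl.

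The promoters of the natriuretic peptide pair are printed because both are taken as markers of the same stress and their fitted differences had opposite signs. The groups overlapped in both genes, and the difference of Nppb was not past the limits. The part of promoter letters in either difference was not tested. The windows are the 300 bases around the RefSeq start on the plus strand of chromosome 4 (GRCm38.p6, chr4:148000472-148000771 for Nppa and chr4:147985650-147985949 for Nppb). Capitals mark TATAAA in both and, in Nppb, the TEAD letters CATTCC on the other strand.
Nppa: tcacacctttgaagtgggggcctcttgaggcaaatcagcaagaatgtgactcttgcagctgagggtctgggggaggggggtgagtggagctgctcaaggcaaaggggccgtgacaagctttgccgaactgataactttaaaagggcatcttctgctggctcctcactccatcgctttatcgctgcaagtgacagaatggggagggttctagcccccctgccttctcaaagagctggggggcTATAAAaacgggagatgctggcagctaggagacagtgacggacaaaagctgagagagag
Nppb: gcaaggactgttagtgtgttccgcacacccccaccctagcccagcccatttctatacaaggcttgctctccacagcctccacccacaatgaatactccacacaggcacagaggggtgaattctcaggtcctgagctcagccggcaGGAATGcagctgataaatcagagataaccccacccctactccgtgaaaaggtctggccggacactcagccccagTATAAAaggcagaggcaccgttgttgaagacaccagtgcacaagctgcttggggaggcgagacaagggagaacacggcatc
TATAAA was present in 13.6% of all 32544 windows. No AP-1 letters were found in either window, which says nothing about the factor.

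Sprr1a, a small proline-rich protein induced in stressed cardiomyocytes, was 1.13, 2.42 and 1.5 on the MI arrays and 1.45, 0.82 and -0.16 on the sham arrays. The groups overlapped through sham replicate 1. The difference was 0.98 ± 0.40 (adjusted p = 0.201), and it was not past the limits without MI replicate 2 (0.61), sham replicate 2 (1.04) or sham replicate 3 (0.55). Acta1, skeletal alpha-actin, was 2.66, 2.66 and 1.81 after MI and 0.90, 2.63 and 0.12 after sham surgery, and its difference of 1.16 ± 0.64 was not past the limits, but it was without sham replicate 2 (1.86). Myh7, beta-myosin heavy chain, was 8.19, 8.26 and 8.06 after MI and 7.78, 7.85 and 6.19 after sham surgery. Every MI array was above every sham array, but sham replicate 3 lay far below the other sham arrays and the difference of 0.90 ± 0.56 was not past the limits. Myh8, the perinatal myosin heavy chain, rose by 0.81 ± 0.19 without overlap (adjusted p = 0.0566). Hsp90ab1, a cytosolic chaperone, rose by 0.92 ± 0.34 on its transcript probe, a difference that was -0.21 with slide as a block. It was not past the limits without MI replicate 2 (0.88), MI replicate 3 (0.87), sham replicate 1 (0.76) or sham replicate 3 (0.82). The housekeeping probe of the same gene differed by 0.32 ± 0.19 and was not past the limits. The count of 8 became 2 without MI replicate 2, 5 without MI replicate 3, 4 without sham replicate 1 and 3 without sham replicate 3, where the median was 0.51. When slide was a block 0 of the 17 stress genes were past the limits and their median was 0.49.

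Of Ank1, the spectrin anchor ankyrin 1, 2 transcripts were named, and both had a positive difference, but that of NM_001110783 was -0.02 with normexp. NM_001277281 was -0.12, -0.25 and -1.16 on the MI arrays and -1.51, -0.99 and -1.27 on the sham arrays, overlapping through MI replicate 3. The difference of 0.75 ± 0.30 was past the limits but not without MI replicate 1 (0.55), MI replicate 2 (0.62), sham replicate 1 (0.62) or sham replicate 3 (0.74). NM_001110783 differed by 0.39 ± 0.33 and was well above background on 1 of 3 sham arrays. In miR-150 fl/fl hearts the first differed by -0.81 ± 0.30 and the second by 1.46 ± 0.33.

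Sarcomere and Z disc genes were split. Past the limits, 7 of 21 named transcripts rose and 0 fell, with a median difference of 0.41, and with transcripts well above background on all 12 arrays the median was -0.02. The median was 0.02 without sham replicate 3, and with slide as a block 2 of the 21 rose. Those that rose included Myh8, the tropomyosin Tpm1 (0.99 ± 0.28, well above background on 1 of 3 sham arrays and 0.10 with normexp) and Pde4dip, an anchor of cAMP phosphodiesterase (0.82 ± 0.22, past the limits in all 18 alternatives). Tcap, the titin cap telethonin, was 3.41, 3.23 and 3.34 after MI and 3.86, 3.87 and 3.92 after sham surgery. It was lower on every MI array, with a difference of -0.56 ± 0.12 and an adjusted p of 0.0424, but its fold was under the limit. The difference was -0.61 after quantile normalization and -0.60 without MI replicate 1, both past the limits. Both transcripts of Tnnt2, cardiac troponin T, were at -0.39 ± 0.15 and -0.35 ± 0.16, under the limit too. Of the 21, 9 were named as lower and 7 as higher in MI miR-150 cKO than in MI miR-150 fl/fl hearts.

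Genes of oxidative phosphorylation were lower in MI than in sham miR-150 cKO hearts. Of 10 named transcripts 7 were lower and 0 higher past the limits, and the median difference was -0.69. All 10 were named as lower in MI miR-150 cKO than in MI miR-150 fl/fl hearts, a list that uses the same MI arrays, so their direction is no independent evidence. Ndufs8, an iron-sulfur subunit of complex I, was 2.34, 2.20 and 2.56 on the MI arrays and 3.02, 3.18 and 3.06 on the sham arrays on the probe of one transcript, NM_001271444. All MI values were lower, and the difference was -0.72 ± 0.15 (adjusted p = 0.0414), with -0.71 ± 0.18 on the probe of the other transcript. Uqcrh, the hinge subunit of complex III, fell by 0.76 ± 0.18, and the complex I subunit Ndufb3 by 0.65 ± 0.16, which was not past the limits without MI replicate 2 (-0.55). Atp5j2, a membrane subunit of ATP synthase, had the lowest difference of the 10, -0.78 ± 0.24, and Ndufb7 the highest, -0.41 ± 0.12. The count of 7 became 4 without MI replicate 2. In miR-150 fl/fl hearts these transcripts lay at -0.07 to 0.16. Of the assembly factors, Uqcc2 was lower past the limits at -0.66 ± 0.29, but not without MI replicate 1 (-0.60), MI replicate 2 (-0.53), sham replicate 2 (-0.59) or sham replicate 3 (-0.54), and Coa3 was at -0.41 ± 0.14. With slide as a block 0 of the 10 were past the limits, with a median of -0.53.

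Of 11 named transcripts of cytosolic ribosomal proteins 5 were lower and 1 higher past the limits, with a median difference of -0.59, and 10 of the 11 were named as lower in MI miR-150 cKO than in MI miR-150 fl/fl hearts. Rps14, of the small subunit, was 2.43, 2.29 and 2.87 after MI and 3.17, 3.49 and 3.49 after sham surgery, without overlap, and fell by 0.86 ± 0.24. Rpsa fell by 0.63 ± 0.19 and Rpl19 by 0.61 ± 0.19. Rpsa was not past the limits without MI replicate 2 (-0.52) or sham replicate 1 (-0.57), nor Rpl19 without MI replicate 2 (-0.54), sham replicate 1 (-0.56) or sham replicate 3 (-0.58). Rps16, also of the small subunit, was the exception, with -0.83, -0.76 and -1.05 after MI and -1.70, -1.37 and -1.67 after sham surgery. It rose by 0.70 ± 0.14 (adjusted p = 0.0413) and was named as higher in MI miR-150 cKO hearts. Of 10 named mitochondrial ribosomal proteins 2 were lower and 0 higher past the limits, with a median of -0.39: Mrpl41 fell by 0.74 ± 0.19 and Mrpl42 by 0.68 ± 0.18, the latter not past the limits without MI replicate 2 (-0.57). These 10 included 7 named as lower and 2 as higher in MI miR-150 cKO than in MI miR-150 fl/fl hearts. The cytosolic count of 5 became 3 without MI replicate 1, 1 without MI replicate 2, 9 without MI replicate 3, 2 without sham replicate 3 and 1 with normexp. The mitochondrial count of 2 became 1 without MI replicate 2 and 4 without MI replicate 3 or without sham replicate 1. With slide as a block 0 of the 11 and 0 of the 10 were past the limits.

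Fuel metabolism showed no common direction. Of 26 named transcripts 3 were lower and 2 higher past the limits, with a median of -0.30 that was -0.07 without sham replicate 3. The 3 became 5 without MI replicate 3. Of the 26, 14 were named as lower and 6 as higher in MI miR-150 cKO than in MI miR-150 fl/fl hearts. All 3 that fell were among the 14, a listing that favours a fall here, so their values are not independent of the choice. In sham hearts 4 were named as lower and 0 as higher in miR-150 cKO than in miR-150 fl/fl, which favours a positive difference. Dbi, the acyl-CoA binding protein, was 0.40, 0.32 and 0.53 on the MI arrays and 1.13, 1.38 and 1.41 on the sham arrays on the probe of NM_001037999, without overlap. It fell by 0.89 ± 0.13 (adjusted p = 0.0223) and was past the limits in all 18 alternatives, and a second transcript fell by 0.74 ± 0.19. Fabp5, a fatty acid binding protein of non-muscle cells, fell by 0.63 ± 0.27 on 1 of 2 transcripts, which was not past the limits without MI replicate 1 (-0.59) or 2 (-0.46), or without sham replicate 1 (-0.69), 2 (-0.68) or 3 (-0.52). Pcyox1, prenylcysteine oxidase, rose by 0.82 ± 0.17 (adjusted p = 0.0429). Pdk4, the kinase that shuts off pyruvate dehydrogenase, was 6.05, 6.19 and 6.01 after MI and 5.46, 6.08 and 5.88 after sham surgery. Its groups overlapped, with a difference of 0.28 ± 0.27, beside -1.30 ± 0.27 in miR-150 fl/fl hearts. The difference between the genotypes was 1.57 ± 0.37, and limma gave it an unadjusted p of 0.00167 and, after adjustment, an adjusted p of 0.20. An unadjusted p under 0.05 for that difference was found in 13.4% of all transcripts tested, and an adjusted p under 0.05 in 0.00%.

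**Figure D4:**
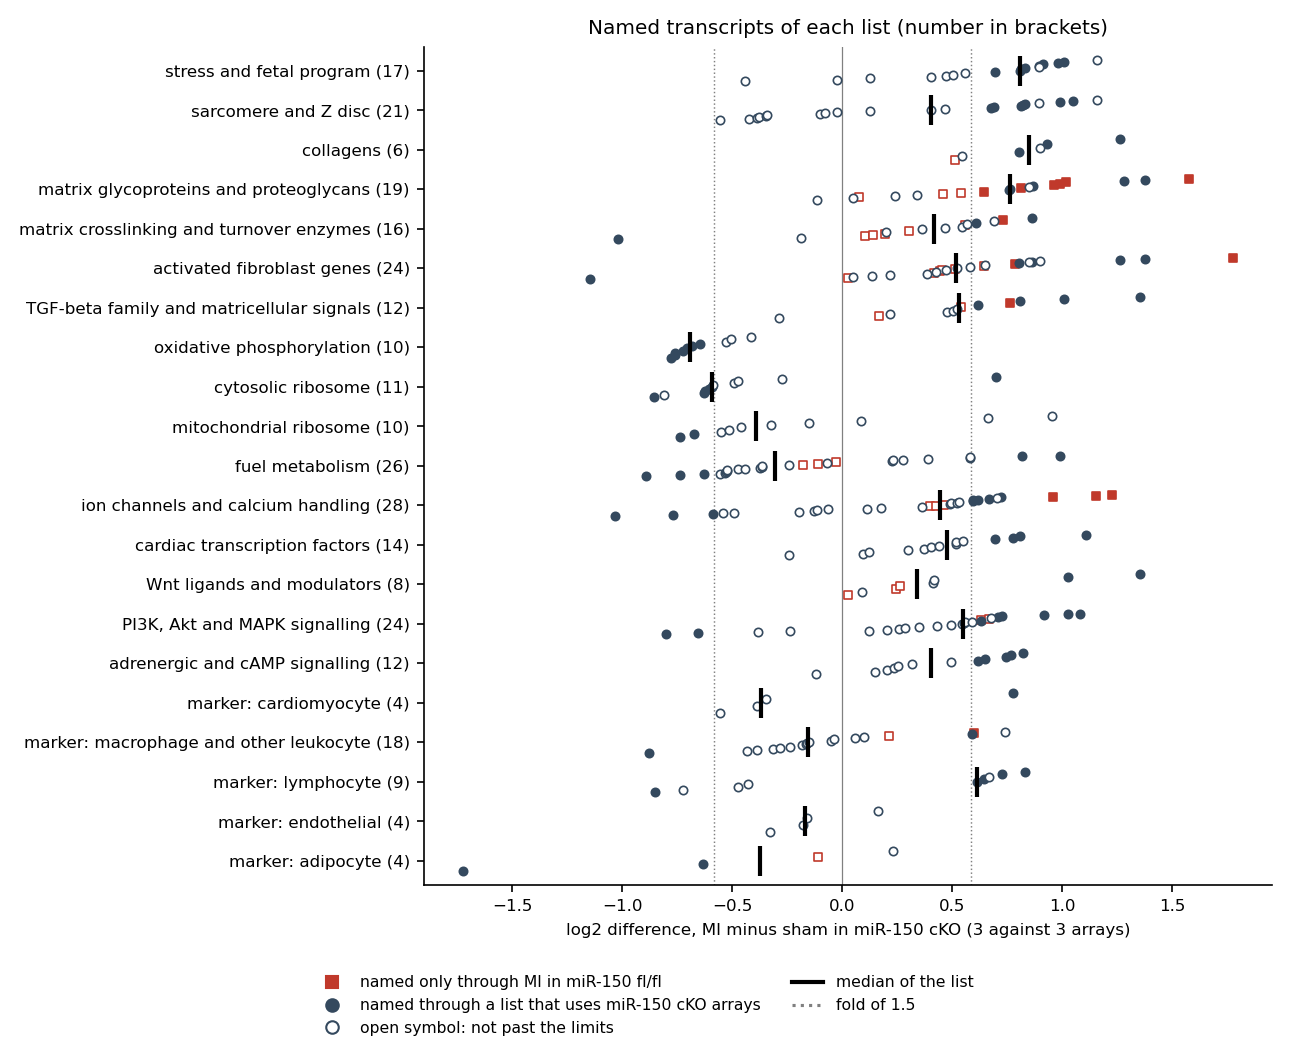
Difference between MI and sham miR-150 cKO hearts (log2, 3 against 3 arrays) of every named transcript in each list with at least 4 of them. The fibroblast marker list is not drawn. A black bar gives the list's median and dotted lines a fold of 1.5. Red squares were named only through MI in miR-150 fl/fl hearts, blue circles through a list that uses miR-150 cKO arrays, and open symbols were not past the limits; matrix lists lie to the right of 0 (medians of 0.42 to 0.85) and oxidative phosphorylation and cytosolic ribosome to the left (-0.69 and -0.59).

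Ion channel and calcium handling genes went both ways, with 8 of 28 named transcripts (28.6%) higher and 3 (10.7%) lower past the limits, beside 22.2% and 10.4% of all named, and a median difference of 0.44. The count of 8 became 3 without MI replicate 2, 3 without sham replicate 3 and 0 with slide as a block, where 1 was lower. Of the 28, 12 were named as higher and 8 as lower in MI miR-150 cKO than in MI miR-150 fl/fl hearts, Kcnab2 and Asph among the 8. A listing as higher there favours a rise here and one as lower a fall, so these directions are not independent of the choice. Kcnma1, the large-conductance calcium-activated potassium channel, had 5 named transcripts, all listed for MI in miR-150 fl/fl hearts, of which 3 rose. The brightest, NM_001253376, was 0.12, 1.08 and 0.36 on the MI arrays and -0.21, -1.20 and -0.49 on the sham arrays, without overlap, and differed by 1.16 ± 0.28 (adjusted p = 0.0616). Probes of the 5 transcripts may share exons, so they are not 5 independent results. Panx1, a membrane channel that releases ATP, rose by 0.62 ± 0.20, and was not past the limits without MI replicate 2 (0.53) or sham replicate 3 (0.53). Kcnab2, a potassium channel beta subunit, fell by 0.77 ± 0.13 (adjusted p = 0.0286) and was past the limits in all 18 alternatives, and Asph fell by 0.59 ± 0.23, which was not past the limits without MI replicate 2 (-0.49), MI replicate 3 (-0.52) or sham replicate 1 (-0.39).

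Of 14 named cardiac transcription factors 4 were higher past the limits and 0 lower, with a median difference of 0.48. The 4 are 28.6% of the list, beside 22.2% of all named, and with slide as a block 2 were higher, of which 1 was among the 4. Of the 14, 9 were named as higher and 2 as lower in MI miR-150 cKO than in MI miR-150 fl/fl hearts. In sham hearts 3 were named as lower and 0 as higher in miR-150 cKO than in miR-150 fl/fl. Being listed as higher in MI or lower in sham miR-150 cKO hearts favours a positive difference here. Gata2, an endothelial and blood cell factor of the GATA family, was 3.88, 4.11 and 4.06 after MI and 2.50, 3.41 and 2.81 after sham surgery. The difference of 1.11 ± 0.29 was 0.10 with slide as a block and -0.10 with slide and row as blocks. Nkx2-5, the homeobox factor of cardiac development, was 4.96, 5.35 and 4.95 after MI and 4.24, 4.67 and 4.03 after sham surgery, without overlap, and rose by 0.78 ± 0.19 (adjusted p = 0.0678), or 0.33 with slide as a block. Nfatc1, a factor activated by calcineurin, rose by 0.81 ± 0.18. Of 8 named Wnt genes 2 were higher past the limits and 0 lower, Sost and Bcl9, a beta-catenin cofactor, with a median of 0.34 that was -0.13 with normexp. Bcl9 rose by 1.03 ± 0.23 (adjusted p = 0.0481) and was past the limits in all 18 alternatives. Of the 8 Wnt genes, 4 were named as higher and 0 as lower in MI miR-150 cKO than in MI miR-150 fl/fl hearts, Bcl9 among them.

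Of 24 named genes of PI3K, Akt and MAPK signalling 6 (25.0%) were higher and 2 (8.33%) lower past the limits, shares close to the 22.2% and 10.4% of all named transcripts, with a median difference of 0.55. Without MI replicate 2 the count lower was 1. Rasa2, a Ras GTPase activator, rose by 0.71 ± 0.14 (adjusted p = 0.0383) and Jund, an AP-1 subunit, by 0.73 ± 0.18 (adjusted p = 0.0648). Map3k13, a kinase upstream of JNK, was -0.36, -0.50 and -0.25 after MI and 0.30, 0.46 and 0.53 after sham surgery and fell by 0.80 ± 0.15 without overlap (adjusted p = 0.0347). The phosphatase Dusp12 fell by 0.65 ± 0.14, and was not past the limits without MI replicate 2 (-0.56). Of 12 named genes of adrenergic and cAMP signalling 5 were higher past the limits and 0 lower, with a median of 0.41, led by the prostaglandin receptors Ptger3 (0.75 ± 0.16) and Ptger4 (0.77 ± 0.19) and by Pde4dip. The count of 5 became 3 without sham replicate 3. Both receptors were well above background on 1 of 3 sham arrays, and with normexp their differences were 0.17 and 0.01. In the fit with slide as a block 0 of the 24 signalling genes rose past the limits and 2 fell, while 2 of the 12 rose. Of the 24, 13 were named as higher and 4 as lower in MI miR-150 cKO than in MI miR-150 fl/fl hearts. Of the 12, 7 were named as higher there and 1 as lower. In sham hearts 4 of the 24 were named as lower and 1 as higher in miR-150 cKO than in miR-150 fl/fl. Of the 12, 5 were lower in that list and 1 higher. Being listed as higher in MI or lower in sham miR-150 cKO hearts favours a positive difference here.

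By fold, and among the 892 transcripts with a name only, those with the largest rise that were well above background on all 6 arrays and without overlap were Fn1, Rnd1, Comp, Sost and Gm11938. Comp and Gm11938 were listed as higher in MI miR-150 cKO than in MI miR-150 fl/fl hearts, which favours a rise here. Fn1 was named only through MI in miR-150 fl/fl hearts. Rnd1, a small GTPase that loosens actin stress fibres, was 3.27, 3.54 and 3.75 on the MI arrays and 1.51, 2.64 and 2.17 on the sham arrays. It differed by 1.41 ± 0.39, or 0.33 with slide as a block. Gm11938 differed by 1.35 ± 0.45, with -0.08 with slide as a block and 0.97, not past the limits, without sham replicate 1. The largest falls among named transcripts were those of Moxd2 (-1.21 ± 0.16), Zfp668 (-1.15 ± 0.18), Runx2, Catsper2 (-1.12 ± 0.15) and Naip5 (-1.08 ± 0.14), each with an adjusted p of 0.0223 or 0.0245 and each past the limits in all 18 alternatives. Moxd2 was -1.44, -1.58 and -1.19 after MI and -0.33, -0.20 and -0.05 after sham surgery. Catsper2, known as a sperm calcium channel, and Naip5, a macrophage sensor of flagellin, lay at signals as low as that of Moxd2, from -1.73 to -0.12. All 5 were named as lower in MI miR-150 cKO than in MI miR-150 fl/fl hearts.

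Of the markers of other cells, fibroblast markers had 3 of 6 named transcripts higher past the limits, 0 lower and a median of 0.73, and their summed signal, in units of the array's 75th percentile, was 51.2 to 87.3 on the MI arrays and 43.9 to 55.9 on the sham arrays. The count of 3 became 1 without MI replicate 2, and 0 by the methods' t-test and with slide as a block. The 3 were Col1a1, Col1a2 and Fbln1, which are also counted above among the collagens and matrix glycoproteins. Col3a1, Dpt and Postn were not past the limits. Pdgfra, Tcf21, Dcn and Lum have no name here. Of 18 named transcripts of macrophages and other leukocytes 2 were higher and 1 lower past the limits, with a median of -0.16 and a summed signal of 36.6 to 55.3 after MI and 45.7 to 61.1 after sham surgery. Of the 18, 14 were named as higher in sham miR-150 cKO than in sham miR-150 fl/fl hearts, which favours a negative difference here. The count of 2 became 0 without MI replicate 3 or sham replicate 1 and 1 without MI replicate 2 or sham replicate 3, and the count of 1 became 2 without MI replicate 3, sham replicate 1 or sham replicate 3. Sash3, a lymphocyte adaptor, fell by 0.88 ± 0.14 (adjusted p = 0.0245), while Bin2 and Cd69 rose by 0.60 ± 0.22 and 0.59 ± 0.16. Bin2 was not past the limits without MI replicate 2 (0.47), MI replicate 3 (0.58), sham replicate 1 (0.56) or sham replicate 3 (0.50), nor Cd69 without MI replicate 3 (0.47) or sham replicate 1 (0.49). Of 9 named lymphocyte transcripts 4 were higher and 1 lower, with a median of 0.61 that was -0.17 with slide as a block and -0.15 with normexp, and a summed signal of 41.3 to 42.9 after MI and 23.2 to 37.1 after sham surgery. The count of 4 became 2 without MI replicate 2 or sham replicate 1, 1 without sham replicate 3 and 0 with slide as a block. Foxp3, the factor of regulatory T cells, rose by 0.65 ± 0.14 (adjusted p = 0.047, and 0.53, not past the limits, without sham replicate 3), and the B cell receptor-like Fcrl1 fell by 0.85 ± 0.14. Foxp3 was named only as lower in sham miR-150 cKO than in sham miR-150 fl/fl hearts. Fcrl1 was named as lower in MI miR-150 cKO than in MI miR-150 fl/fl hearts. Both listings favour the direction seen here, so these values are not independent of the choice. Of the 9, 3 were named as higher and 4 as lower in MI miR-150 cKO hearts, and 1 each way in sham hearts. Of 4 endothelial transcripts 0 were past the limits, with a median of -0.17 that was 0.06 with slide as a block, and of 4 cardiomyocyte transcripts 1, Nkx2-5, was higher, with a median of -0.37. All 4 endothelial transcripts were named as lower in MI miR-150 cKO than in MI miR-150 fl/fl hearts. Of the 4 cardiomyocyte transcripts 3 were named as lower there and 1 as higher. A listing as lower there favours a negative difference here, so neither median is independent of the choice. No transcript of smooth muscle or pericytes had a name.

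Adipocyte markers were lower past the limits in 2 of 4 named transcripts and higher in 0, with a median of -0.37 that was 0.02 with slide as a block. The 2, Adipoq and Cfd, were listed as lower in MI miR-150 cKO than in MI miR-150 fl/fl hearts. That listing uses the same MI arrays and favours a negative difference here, so these falls are not independent of the choice. Another of the 4 was listed as lower in sham miR-150 cKO than in sham miR-150 fl/fl hearts, which favours a positive difference. Adipoq, adiponectin, was -2.25, -3.33 and -2.64 on the MI arrays and -0.48, -2.58 and 0.01 on the sham arrays. Sham replicate 2 lay within the MI values, the other sham arrays above them, and the difference was -1.72 ± 0.74 (adjusted p = 0.222). It was not past the limits without MI replicate 2 (-1.43), MI replicate 3 (-1.78), sham replicate 1 (-1.46) or sham replicate 3 (-1.21). Cfd, complement factor D of fat, was -3.04, -3.03 and -2.87 after MI and -2.34, -2.43 and -2.28 after sham surgery, and fell by 0.63 ± 0.22 without overlap, or -0.08 as a difference with slide as a block. The summed signal of the 4 was 8.70 to 12.1 after MI and 10.2 to 15.9 after sham surgery. The part of fat tissue or of fibroblast number in the differences above was not tested.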

How the data were processed

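The deposited scanner files hold, per the file headers, 1-colour Agilent signal intensity for 62939 spots per array, extracted by the authors with Agilent Feature Extraction 11.0.1.1 according to the submitters' processing notes. The deposited series values are log2 values that the authors had normalized between arrays. The main values were log2 of the processed intensity minus the 75th percentile of each array, averaged over spots of a probe, with control and outlier spots left out. Probes that 3 or more of the 12 arrays showed well above background were fitted in limma 3.58.1 (R 4.3.3, data.table package, version 1.17.8) over the 4 groups of the labels, and MI minus sham within miR-150 cKO was the contrast. Lists were summarised and plotted with Python 3.11.15, pandas 2.3.3 and matplotlib 3.10.9. The test was checked on simulated data.

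Probe names came from the study's lists of changed transcripts, used as a name key, and 53340 tested probes had no name from them. Housekeeping probes were the exception and were named through the RefSeq transcript that the scanner files give for each. Each of the 963 list entries was tied to its 1 probe by matching the listed fold and p, within a relative tolerance of 2e-05, to those recomputed from the deposited log2 values. Which list and direction an entry stood in was used to group transcripts, and no listed value is reported. Named were 9 fixed genes, the 6 in each direction with the smallest p among genes listed for MI in miR-150 fl/fl hearts, the 3 in each direction from each of 17 gene lists and 7 marker lists, and the 5 with the largest fold in each direction. The lowest and highest members of a list could also be named. The members and lists were chosen with earlier results of these data known. A bound such as that of Lrrc15 sets the MI mean against the lowest signal well above background on each sham array, or the probe's own signal where that is higher. Each array is 1 mouse, and the number of arrays limits the precision. That there were 2 slides was worked out from the scan batch and position of each array in the files. The alternatives were other normalizations and background correction, other filters, the miR-150 cKO arrays alone, the methods' t-test as a comparison of counts, sex, replicate number, slide and row as terms, and each array left out in turn. Some items are not reported here.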

Additional observations from a re-analysis of the deposited data

Results flagged for a closer look

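The response to MI differed between the genotypes at an unadjusted p under 0.05 in 4 transcripts of the fixed genes, and in none of them at an adjusted p under 0.05 (limma, Benjamini-Hochberg), beside 13.4% and 0.00% of all transcripts tested. Given as the miR-150 cKO response minus the miR-150 fl/fl response, the values were -1.69 for Nppb, 1.57 for Pdk4, -1.07 for Ank1 NM_001110783 and 1.55 for Ank1 NM_001277281. These transcripts were listed by the study from comparisons of the same arrays, so the p values are not independent of how they were chosen, and the part of that choice in the differences was not tested.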

How the results depend on the processing

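The naming rule picked 45 transcripts higher past the limits, and 5 of them kept their call in every alternative. Of the 28 lower ones it picked, 10 did. The rule favoured a small p or a large fold, and all 892 named transcripts held 198 higher and 93 lower calls. The 2495 higher calls became 920 with normexp, 1398 with the filter on all 12 arrays, 1476 by the methods' t-test, 1420 with slide as a block, and 1834 to 4719 with 1 array left out. The 951 lower calls became 411 with normexp, 2527 with no filter, 1670 with slide and row, and 666 to 1528 with 1 array left out. The 1139 adjusted calls became 1938 by quantile normalization, 3343 with normexp, 1915 with the authors' values, 2005 with the filter on all 12 arrays, 0 with the miR-150 cKO arrays alone, 0 by the methods' t-test, 22 with slide, 5 with slide and row, and 0 to 4037 with 1 array left out. Of transcripts past the limits 55.2% were higher with the authors' values and 54.5% with slide as a block. Of the 92 transcripts picked by the naming rule, 63 had an interaction of genotype and surgery at an unadjusted p under 0.05 (limma). There were 34 with slide and 23 with slide and row. Over all 892 with a name 478 had it, and over all tested 13.4%, with an adjusted p under 0.05 in 0.00%. The picking and the naming used these same arrays, so the count of 63 is not independent of them. Among the 103 listed as higher in miR-150 fl/fl, 26 higher calls became 13 by the methods' t-test, 6 with slide, 10 with slide and row, and 14 to 36 with 1 array left out, and the 1 lower call became 0 by the methods' t-test and 0 to 4 with 1 array left out.

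Among these 45 and 28 transcripts and the list medians, signs turned with slide as a block in Gm11938 (-0.0846), Hsp90ab1 (-0.21), Il2ra (-0.0391) and the medians of lymphocyte markers (-0.17), endothelial markers (0.0646), adipocyte markers (0.0222) and transcripts listed as lower in miR-150 fl/fl (-0.0831). With slide and row they turned in Gata2 (-0.10), Gm11938 (-0.46), Hsp90ab1 (-0.36), Il2ra (-0.29), Klrb1a (-0.15), Sost (-0.14) and the medians of Wnt genes (-0.0546), cardiomyocyte markers (0.0615), endothelial markers (0.20) and lymphocyte markers (-0.29). With normexp they turned in Mapk7 (-0.0431) and the medians of Wnt genes (-0.13), lymphocyte markers (-0.15) and transcripts listed as lower in miR-150 fl/fl (-0.16). The last also turned by quantile normalization (-0.0563), with the authors' values (-0.0563) and with the filter on all 12 arrays (-0.0299). Signs turned too in the sarcomere median with the filter on all 12 arrays (-0.025) and in the leukocyte median without MI replicate 1 (0.0605, from -0.2164 with 1 array left out). The cause was not tested.

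The labels number replicates 1 to 3 in each group, but nothing says that a number marks a shared litter or day. Deviations of same-numbered arrays correlated at 0.20, 0.06 and 0.26, so the numbers were not taken as pairs. With the replicate number as a block 2453 were higher, 996 lower and 0 had an adjusted p under 0.05, and of the 103 listed transcripts 28 were higher and 0 lower. Dim probes limit what can be measured: 44190 of the 54232 tested were well above background on all 6 arrays.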
